A study of Mus musculus with 24 samples.

Results

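The integrated stress response was followed through 10 genes: Atf4, Atf5, Atf3, Ddit3, Trib3, Ddit4, Sesn2, Asns, Chac1 and Ppp1r15a. All probe sets whose platform annotation listed exactly 1 gene symbol, and that symbol was one of these, were taken, which gave 16 of the 45101 probe sets of the array. Atf4 had 3 probe sets, Ddit3, Trib3, Asns and Sesn2 had 2 each, and the other 5 genes had 1. The gene set was chosen by its known roles and by the deposited values of Atf5, whose level in HF livers was already seen to lie below that in LF livers. Values of that comparison, counts of calls included, are therefore given as a description of the 10 genes and support nothing about them.

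The livers came from male C57BL6J mice, and 1 array was hybridised per mouse. There were 6 mice on a 45% high-fat diet to which 5% propagule powder of Japanese yam was added (HF+P), 6 on the 45% high-fat diet alone (HF) and 6 on a low-fat diet (LF). All mice had started on the low-fat diet, ate their test diet for 4 weeks and had fasted for 16 h when the liver was taken. The 6 HF arrays were processed by the authors once beside the LF arrays and once beside the HF+P arrays, which gave 2 value sets of 12 columns, and no value of one set was tested against the other. Liver is mostly hepatocytes by mass, and all 7 measured hepatocyte markers had levels above 99% of probe sets in both sets. In such bulk tissue, fewer cells of a type and less RNA per cell cannot be told apart.

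In the integrated stress response, kinases that sense amino acid shortage, endoplasmic reticulum (ER) load, haem shortage or double-stranded RNA phosphorylate the translation factor eIF2. Translation in general then slows, while the mRNAs of ATF4 and ATF5 are translated more, so that the mRNA level of these factors shows only part of their regulation. ATF4 with its partners of the C/EBP and ATF families turns on genes of amino acid supply, redox balance and feedback, and in the liver the pathway is known for its answer to dietary protein and ER stress.

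ATF4 is known to bind composite C/EBP-ATF response elements. Sequences before the transcription start are shown for the members that hold the core of this element or the palindromic cAMP response element to which ATF and CREB proteins bind, and for Atf5, the member with the largest difference between HF and LF livers. All 10 genes matched the RefSeq promoter table of GRCm38.p6, with 11 windows. The letters TGATGNAA and TGACGTCA were searched on both strands in the 250 bases before each start. The first stood in 3 of the 11 member windows and in 3.45% of all 32851 windows, the second in 1 of 11 and in 1.55%. Matches are in capitals, and each line runs 5′ to 3′ on the strand of the gene.
Asns, chr6:7693210-7693262, minus strand: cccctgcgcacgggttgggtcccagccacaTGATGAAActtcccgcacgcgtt
Atf3, chr1:191183406-191183473, minus strand: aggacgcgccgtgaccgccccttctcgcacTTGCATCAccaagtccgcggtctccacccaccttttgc
Chac1, chr2:119351019-119351086, plus strand: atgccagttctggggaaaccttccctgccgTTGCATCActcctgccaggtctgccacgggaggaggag
Ppp1r15a, chr7:45526269-45526310, minus strand: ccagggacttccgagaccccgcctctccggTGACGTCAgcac
Atf5, chr7:44816659-44816908, minus strand: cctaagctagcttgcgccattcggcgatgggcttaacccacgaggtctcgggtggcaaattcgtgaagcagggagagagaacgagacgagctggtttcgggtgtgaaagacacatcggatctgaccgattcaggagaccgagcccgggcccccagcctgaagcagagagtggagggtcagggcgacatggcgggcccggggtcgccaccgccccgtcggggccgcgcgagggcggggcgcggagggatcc
The first base of the match lies at position -23 from the start in Asns, -110 in Atf3, -193 in Chac1 and -12 in Ppp1r15a. Neither set of letters stands in either of the 2 Atf5 windows. A match is a run of letters, and binding was not measured here.

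From array to array, most probe sets changed little in their deposited values. The pooled SD within groups had a median over all probe sets of 4.06e-06 in the set of HF and LF and of 4.20e-06 in the set of HF+P and HF. A difference in these values is thus not read as a fold change. Sizes are given as standardized differences, that is, the gap between the group means in units of the SD pooled within groups, after Hedges' correction for few samples. Single mice are given as their distance from the mean of the other group of the pair (LF or HF), in the same SDs. Where a gene had several probe sets, the one with the highest mean represented it.

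The comparison of HF with LF addressed high-fat loading. Atf5, a basic leucine zipper factor related to ATF4 and known for its part in the mitochondrial stress response, was lower in HF livers than in LF livers. Its lowest, median and highest deposited values were 10.0732, 10.0802 and 10.0867 in HF livers, against 10.0879, 10.0905 and 10.0933 in LF livers. All 6 HF mice lay below all 6 LF mice. HF mouse 1 came closest to the LF mice, at -1.005 SDs from the LF mean, and HF mouse 4 was farthest, at -4.56. The means were 10.0804 ± 0.00502 in HF livers and 10.0906 ± 0.00191 in LF livers (SD, n = 6 each), a standardized difference of -2.45. HF mice also varied more among themselves than LF mice did. Leaving out 1 mouse at a time gave values from -3.16 (without HF mouse 1) to -2.25 (without LF mouse 1).

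Atf5 was the 1 of 16 probe sets whose groups did not overlap, where 1.57% of all probe sets had groups that did not overlap and 0.921% lay lower in HF without overlap. In the limma fit over all 45037 probe sets that are not array controls, 0 of the 16 member probe sets passed an adjusted p of 0.05, where 0.671% of all probe sets were called, and 5 had an unadjusted p below 0.05, where 12.9% of all had one. With 1 probe set per gene, the setting in which Atf5 had been picked out, 1 of the 10 genes was called lower and 0 higher, where 1.82% of 18193 genes were called, 1.14% lower and 0.682% higher. Whether Atf5 was called also changed with the scaling, with the mouse number as a block and without HF mouse 1, and nothing is read from its call here.

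**Figure D1:**
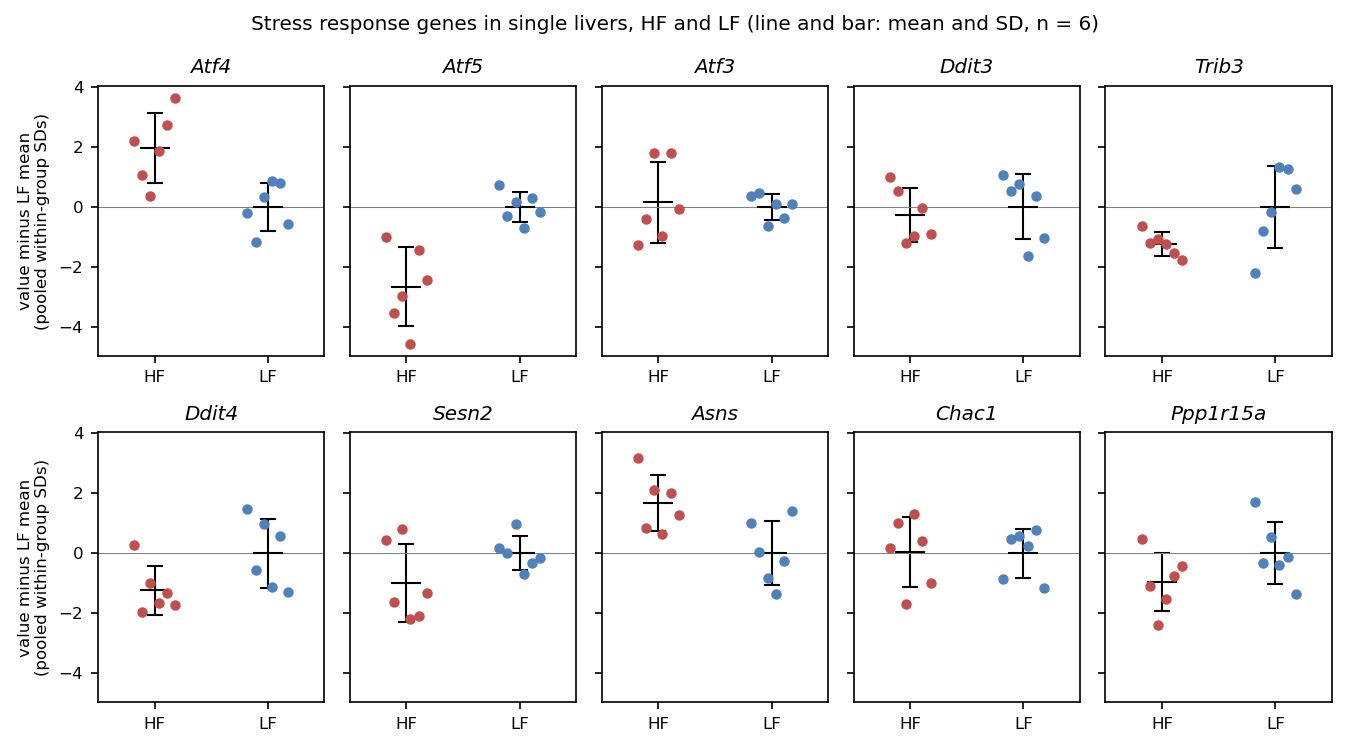
Levels of the 10 genes in single livers, with HF at the left and LF at the right of each panel. The y axis is the deposited value minus the LF mean, in pooled within-group SDs. Dots are mice (6 per group), and the line and bar are the mean and SD. Atf5 separates the groups without overlap, with HF mice between -4.56 and -1.005 SDs, and the groups overlap in the other 9 genes.

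Atf4, the central transcription factor of the pathway, had higher values in HF livers on the probe set that represents it. The HF mice had a lowest, median and highest distance from the LF mean of 0.36, 2.02 and 3.61 SDs, against -1.19, 0.055 and 0.85 in LF mice. In 5 of 6 HF mice the value lay above every LF mouse, and HF mouse 3 fell within the LF range. The standardized difference was 1.81. The other probe sets of Atf4 gave 1.01 and -0.11, so that its probe sets differ in sign. The difference behind 1.81 is 2.41e-05 on the deposited scale. Its sign turned under quantile normalisation (-1.61) and after centring on column medians (-1.67).

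Atf3, a factor induced by many stresses that can repress its targets, had a standardized difference of 0.13. Its HF mice spread from -1.29 to 1.80 SDs, against -0.63 to 0.46 in LF mice, so the HF values lay on both sides of the LF values. Ddit3 encodes CHOP, the factor tied to cell death under lasting ER stress. Its 2 probe sets gave -0.26 and -0.37, with groups that overlapped. In the second of them HF mouse 5 stood at 2.14 SDs, while the other HF mice lay between -1.32 and -0.38.

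Trib3, a pseudokinase that binds AKT and ATF4 and is itself an ATF4 target, had lower values in HF livers. The lowest, median and highest HF mice were at -1.77, -1.23 and -0.63 SDs from the LF mean, against -2.21, 0.21 and 1.32 in LF mice. In 5 of 6 HF mice the value lay below 5 of the 6 LF mice, but LF mouse 1 lay below every HF mouse, so the groups overlapped. The standardized difference was -1.15, and -1.25 on the second probe set, where LF mouse 1 was again the lowest. Without LF mouse 1 it was -2.28, which is the widest move that leaving out a mouse made in this gene.

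Ddit4 and Sesn2 both restrain mTORC1, the kinase complex that couples nutrient supply to growth. Ddit4 had a lowest, median and highest HF value of -1.96, -1.49 and 0.29 SDs, against -1.30, 0.0083 and 1.46 in LF mice. In 4 of 6 HF mice it lay below every LF mouse, and HF mouse 1 was within the LF range. Its standardized difference was -1.14. Sesn2 had a value of -0.92 and, on its second probe set, -0.39. In 4 of 6 HF mice it lay below every LF mouse on the first, while HF mouse 3 stood at 0.80 SDs.

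Asns makes asparagine from aspartate and is an ATF4 target with the element shown above. Its lowest, median and highest HF values were 0.64, 1.64 and 3.16 SDs from the LF mean, against -1.36, -0.12 and 1.41 in LF mice. All 6 HF mice lay above the LF mean, and 3 of them above every LF mouse. The standardized difference was 1.54, and 0.96 on the second probe set. The difference behind 1.54 is 5.98e-06, and centring on column medians turned its sign (-2.62), and quantile normalisation left -0.033. Chac1, which breaks down glutathione, had 0.037. Ppp1r15a encodes GADD34, the phosphatase subunit that removes the phosphate from eIF2. It had a standardized difference of -0.88, with HF mice from -2.38 to 0.48 SDs, against -1.36 to 1.69 in LF mice.

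Among the 10 genes, 4 had higher and 6 had lower values in HF livers, with a median standardized difference of -0.57, where the median over all genes was 0.011. On the deposited scale Atf4 and Asns lay above, while Atf5, Trib3 and Ddit4 lay below by more than 1 SD. After quantile normalisation 9 of the 10 genes lay below 0, with a median of -1.08, where the median over all genes moved to -0.76. After centring on column medians all 10 lay below 0, with a median of -2.19, where the median over all genes moved to -2.71. How much of this rests on scaling was measured in 3 ways. After centring each column on the median of its deviations from the probe set means, 0 of 16 member probe sets changed sign. This centring could hardly turn a sign. The smallest member difference in size, -3.6e-07 on an Atf4 probe set, is larger in size than the median difference over probe sets given below. Centring on the column medians turned 6 of 16 and quantile normalisation 5 of 16, and the differences of Atf5, Ddit4 and the 2 Trib3 probe sets exceeded the shift of column medians, 6.45e-05. That shift is larger than the difference of 94.7% of all probe sets. The median difference over probe sets was 3.53e-08, and 4 different probe sets stood at the column median in the 12 columns.

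The spread itself set Atf5, Trib3, Ddit4 and Chac1 apart from the other members. In the set of HF and LF, the pooled SD of Atf5 was 0.00380, above 99.5% of all probe sets, and those of Trib3, Ddit4 and Chac1 lay above 98.5%, 97.5% and 95.7%. The second Trib3 probe set was above 99.1%. Atf4, Asns, Atf3, Sesn2, Ddit3 and Ppp1r15a had probe sets between the 32.7th and 92.0th percentile of SD. All 16 probe sets thus enter with spreads of very different size, which a standardized difference removes and a difference of deposited values does not.

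Setting HF+P livers against HF livers addressed ingestion of the propagules, and this contrast was not used to choose the genes. None of the 16 probe sets passed: 0 had an adjusted p below 0.05 (limma, Benjamini-Hochberg over 45037 probe sets), where 0.00222% of all probe sets were called, and 0 had an unadjusted p below 0.05, where 6.94% of all had one. Adjusted p values lay between 0.775 and 0.993. Standardized differences ran from -0.91 to 0.82, with a median over the 10 genes of 0.21, where the median over all genes was 0.022. The groups overlapped in all 16 probe sets, where 0.355% of all probe sets had groups that did not (0.162% higher and 0.193% lower in HF+P).

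**Figure D2:**
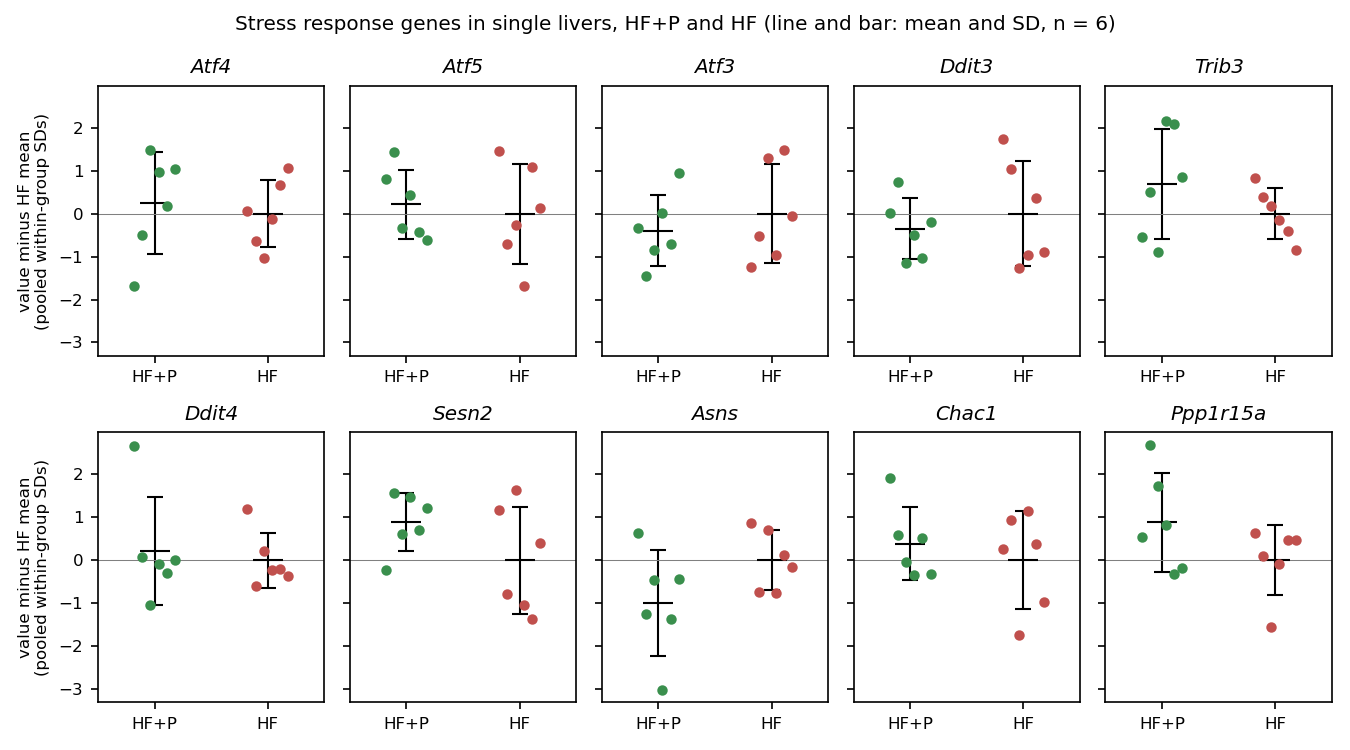
Levels of the 10 genes in single livers, with HF+P at the left and HF at the right of each panel. The y axis is the deposited value minus the HF mean, in pooled within-group SDs. Dots are mice (6 per group), and the line and bar are the mean and SD. The groups overlap in every panel, and single HF+P mice stand far from the HF mean, such as mouse 4 in Asns at -3.03 SDs.

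Atf5 had deposited values of 10.0515, 10.0524 and 10.0544 in HF+P livers (lowest, median and highest), against 10.0499, 10.0523 and 10.0545 in HF livers. The whole HF+P range lay inside the HF range. The standardized difference was 0.20 (95% interval -0.86 to 1.24, n = 6 each; limma, adjusted p = 0.966), and the interval holds 0 as well as differences of either sign.

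Atf4 gave 0.23 (-0.83 to 1.27; limma, adjusted p = 0.958), with HF+P mice from -1.69 to 1.47 SDs, against -1.03 to 1.07 in HF mice. Its other probe sets gave 0.050 and 0.14. Atf3 gave -0.37 (-1.41 to 0.70), and its sign turned after quantile normalisation (0.58) and after centring on column medians (0.19). The probe sets of Ddit3 gave -0.33 and 0.40 and so differ in sign.

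Trib3 gave 0.64 (-0.46 to 1.70; limma, adjusted p = 0.848) and 0.75 (-0.36 to 1.83) on its 2 probe sets. HF+P mice 4 and 7 stood highest on both, at 2.16 and 2.08 SDs on the first and 1.92 and 2.46 on the second, against at most 0.83 and 1.03 in HF mice. On the first probe set 3 of 6 HF+P mice lay above every HF mouse, and on the second 2 of 6. Ddit4 gave 0.20 (-0.85 to 1.24), with HF+P mouse 1 at 2.65 SDs and the other HF+P mice between -1.05 and 0.077, against -0.60 to 1.19 in HF mice. Its value without that mouse was -0.44.

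Sesn2 gave 0.82 (-0.30 to 1.90; limma, adjusted p = 0.798) and 0.61 (-0.48 to 1.67). Its HF+P mice had a lowest, median and highest value of -0.22, 0.96 and 1.55 SDs, against -1.37, -0.19 and 1.64 in HF mice. Ppp1r15a gave 0.81 (-0.31 to 1.89; limma, adjusted p = 0.800), with 3 of 6 HF+P mice above every HF mouse and HF+P mouse 2 at 2.68 SDs. HF mouse 3, at -1.57, was far below the other HF mice, and without it the standardized difference was 0.58. Chac1 gave 0.35 (-0.71 to 1.40).

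Asns had the largest value of the 16 in size, -0.91 (-2.01 to 0.22; limma, adjusted p = 0.775), and -0.37 on its second probe set. Its HF+P mice had a lowest, median and highest value of -3.03, -0.86 and 0.64 SDs, against -0.77, -0.022 and 0.85 in HF mice. In 3 of 6 HF+P mice the value lay below every HF mouse, and centring on column medians turned the sign (0.097). In exact two-sided permutation tests over all 924 assignments of the 12 mice, the unadjusted p of the 10 genes lay between 0.117 (Asns) and 0.760 (Ddit4), where the smallest p possible is 0.00216.

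**Figure D3:**
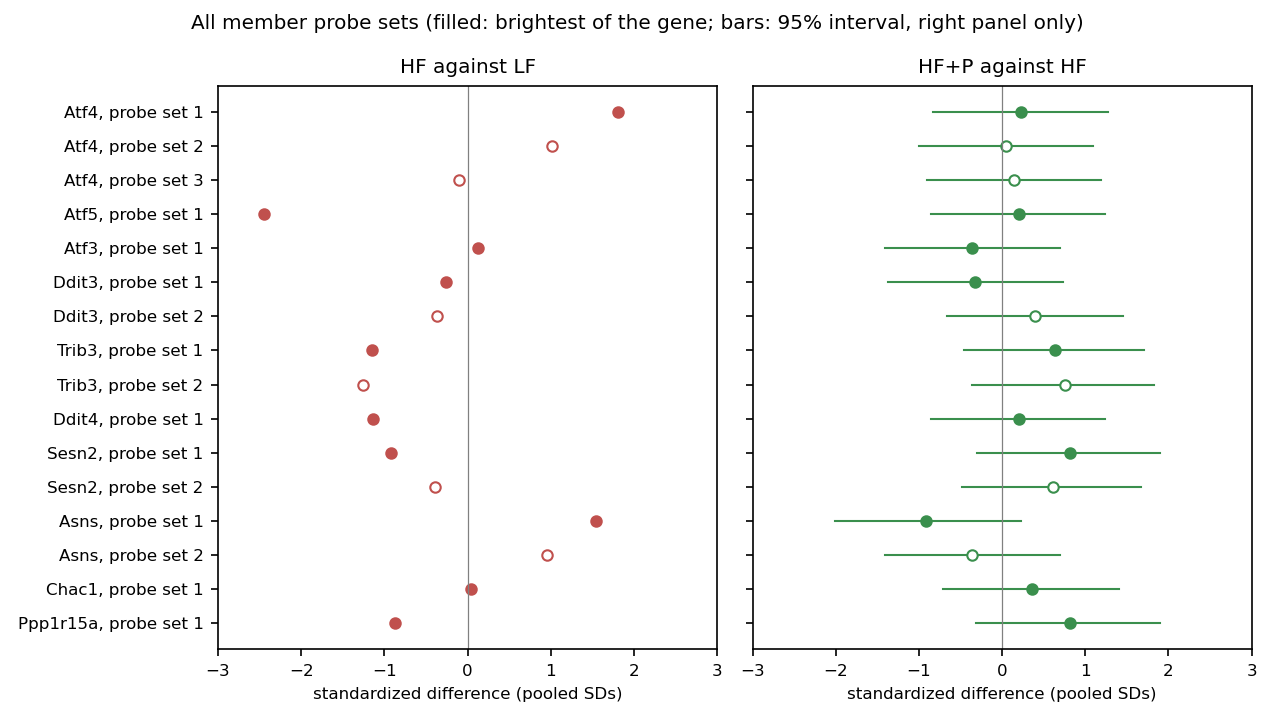
Standardized differences of all 16 member probe sets, HF against LF at the left and HF+P against HF at the right, in pooled SDs. Filled dots are the probe set that represents the gene, and bars in the right panel are 95% intervals, which all include 0. Values at the left run from -2.45 (Atf5) to 1.81 (Atf4), and those at the right from -0.91 (Asns) to 0.82 (Sesn2).

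The same 6 HF livers stand in both value sets, which shows how far the values of a mouse depend on the arrays it was processed with. Over the 6 HF mice, the Pearson correlation between both processings, given as a description, was 0.9996 for Atf5, ran from 0.69 (a probe set of Atf4) to 0.9996 over the 16 probe sets, and had a median of 0.96, where the median over all probe sets was 0.95. Spearman's rho over the same mice was above 0.9 in 12 of 16 probe sets, and lowest in a probe set of Atf4 (0.486) and one of Ddit3 (0.714). The SD of the HF mice had a median ratio between both processings of 0.990 and lay between 0.5 and 2 in 10 of 16 probe sets. At the extremes, the SD of the HF mice was 2.99 times as large for Atf5 when processed with LF as when processed with HF+P, 6.79 and 3.51 times as large for the Trib3 probe sets, but 0.216 times as large for Ppp1r15a and 0.299 times for Chac1. Because HF mice are shared, the values of HF against LF and HF+P against HF are set side by side only: -2.45 and 0.20 for Atf5, -1.15 and 0.64 for Trib3, -1.14 and 0.20 for Ddit4, 1.81 and 0.23 for Atf4, and 1.54 and -0.91 for Asns.

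**Figure D4:**
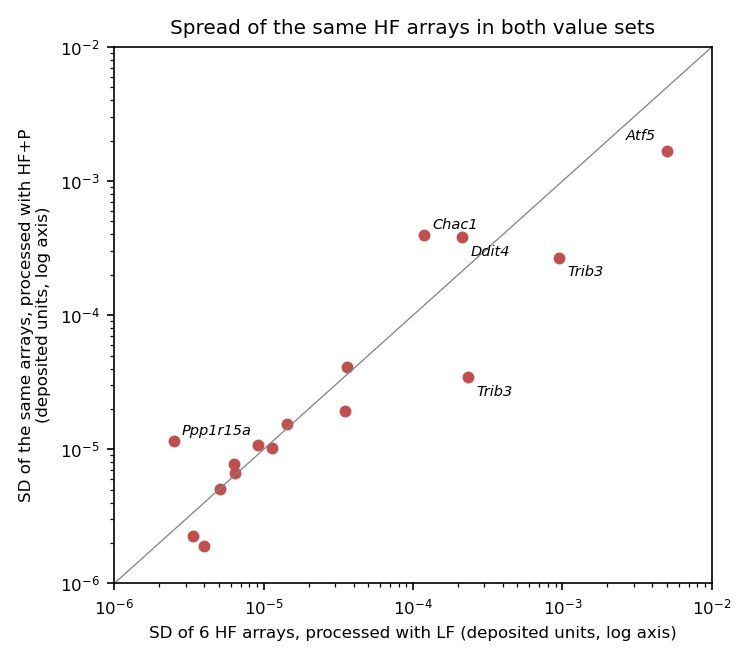
SD of the 6 HF arrays for each of the 16 member probe sets, processed with LF (x axis) and with HF+P (y axis), in deposited units on log axes. The grey line marks equal SDs. Atf5 and both Trib3 probe sets lie below the line, with SDs 2.99, 6.79 and 3.51 times as large when processed with LF, and Ppp1r15a and Chac1 lie above it.

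Other genes of the pathway were read from lists, each gene through its brightest probe set, and called in the fit over all probe sets. Of 13 measured eIF2 kinases, eIF2 and eIF2B subunits and cofactors, 0 passed in either comparison, where 0.984% of 18193 represented genes were called in HF against LF (0.379% higher and 0.605% lower) and 0.0055% in HF+P against HF. Eif2ak3, which encodes the ER stress kinase PERK, had standardized differences of -0.37 in HF against LF and -0.80 in HF+P against HF. Eif2ak4, which encodes the amino acid sensor GCN2, had 0.14 and -0.14. Eif2b1, a subunit of the exchange factor that phosphorylated eIF2 inhibits, had -2.64 in HF against LF, with all 6 HF mice below every LF mouse (limma, adjusted p = 0.0571), and it was singled out after its value was seen. Of all probe sets 0.921% lay lower in HF than in LF without overlap. Eif2b1 had -0.88 after quantile normalisation (limma, adjusted p = 0.266), where the median over all genes was -0.76. It passed with 1 probe set per gene (limma, adjusted p = 0.0383).

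Among 19 ATF4 targets of amino acid synthesis and transport, 1 rose and 0 fell in HF livers, and 10 had higher values. Shmt2, the mitochondrial serine hydroxymethyltransferase, rose, at 2.69 (1.10 to 4.23; limma, adjusted p = 0.0483), and 5 of 6 HF mice lay above every LF mouse. After quantile normalisation it had 0.53 and did not pass (limma, adjusted p = 0.512), and after centring on column medians it had -1.30. The medians over all genes were -0.76 and -2.71 under these scalings. The call of Shmt2 was lost in 11 of 12 fits without 1 mouse. Phgdh and Psat1, enzymes of serine synthesis, had 0.15 and 0.19, and Slc7a11, the cystine transporter, had 0.58. In HF+P against HF 0 of the 19 passed and 10 had higher values, with a median of 0.044. The named genes had -1.05 (Phgdh), -0.065 (Psat1) and -0.29 (Slc7a11).

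Of 18 aminoacyl-tRNA synthetases, which load tRNAs with amino acids, 1 rose and 0 fell in HF livers. Cars, the cysteinyl-tRNA synthetase, rose, at 2.69 (1.10 to 4.22; limma, adjusted p = 0.0499), but had -1.34 after quantile normalisation and -2.17 after centring on column medians, and its call was lost in 11 of 12 fits without 1 mouse. The medians over all genes in HF against LF were -0.76 and -2.71 under these scalings. Aars had 1.40 in HF against LF and 0.61 in HF+P against HF. In HF+P against HF, 15 of the 18 synthetases had higher values and 3 lower, with a median of 0.72, and 0 passed, where the median over all genes was 0.022. The median of the synthetases was 0.46 after quantile normalisation and 0.81 after centring on column medians, where the medians over all genes were 0.12 and 0.54. Both scalings raise the median over all genes, so that a sign kept above 0 tells little. Gars and Farsb, the glycyl- and a subunit of the phenylalanyl-tRNA synthetase, were singled out after their values were seen: all 6 HF+P mice lay above every HF mouse, with 2.55 (1.001 to 4.03; limma, adjusted p = 0.527) for Gars and 2.09 (0.68 to 3.44; limma, adjusted p = 0.504) for Farsb, where 0.355% of all probe sets did not overlap. After quantile normalisation they had 0.53 and 0.84, and after centring on column medians 0.87 and 1.68.

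Of 18 other ATF4 targets among stress and secreted factors, 0 passed in either comparison, and 6 had higher values in HF than in LF and 11 in HF+P than in HF. Fgf21, the fasting hormone of the liver, had -2.17 in HF against LF (limma, adjusted p = 0.0898) and 0.21 in HF+P against HF. Nupr1, a stress-induced chromatin protein, had -0.78 and -0.34, and Herpud1, a component of ER-associated degradation, had -0.28 and 0.081. Cebpb and Cebpg, C/EBP partners of ATF4, had -0.56 and 0.32 in HF against LF and 0.45 and -0.12 in HF+P against HF. Of the 16 measured partners 0 passed in either comparison, and 10 had higher values in HF than in LF and 8 in HF+P than in HF.

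ER chaperones and unfolded protein response genes had higher values in HF livers in 18 of 21 cases, with a median of 0.94, and 0 passed. The median was 0.14 after quantile normalisation, where that over all genes was -0.76. After centring on column medians it was 0.45, where that over all genes was -2.71. Under either scaling the median of the list lay above that over all genes. Hspa5, the chaperone BiP, had 0.95 in HF against LF and -0.058 in HF+P against HF, and Xbp1, the factor spliced in the unfolded protein response, had 0.73 and -0.096. Of 12 mitochondrial chaperones and proteases, including targets that ATF5 is known to induce, 0 passed in either comparison, and 5 had higher values in HF than in LF and 8 in HF+P than in HF. Hspd1 had 0.74 and -0.27. Lonp1, the protease of the mitochondrial matrix, had -0.34 in HF against LF and 1.89 in HF+P against HF (0.54 to 3.19; limma, adjusted p = 0.522), with 4 of 6 HF+P mice above every HF mouse.

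Of 14 immediate early genes, which respond to handling and signalling within minutes, 0 passed in either comparison. In HF against LF 5 had higher and 9 lower values, with a median of -0.33, and in HF+P against HF 10 had higher values, with a median of 0.11. Fos had 0.82 and 0.36, and Egr1 had 0.90 and -0.013. Of 15 glucocorticoid and fasting response genes, 14 had lower values in HF livers, with a median of -0.83, and 1 fell. The median of the list was -0.70 after quantile normalisation, where that over all genes was -0.76. After centring on column medians it was -1.26, where that over all genes was -2.71. Under either scaling the list thus lay no lower than the median gene. G6pc, which encodes the enzyme of the last step of hepatic glucose release, fell, at -3.10 (-4.77 to -1.38; limma, adjusted p = 0.0261), with all 6 HF mice below every LF mouse, and its call was lost in 8 of 12 fits without 1 mouse. Groups that lay lower in HF without overlap made up 0.921% of all probe sets. Per1, a clock gene that glucocorticoids induce, had -0.83 in HF against LF and 0.55 in HF+P against HF. In HF+P against HF 12 of the 15 genes had higher values, with a median of 0.55, and 0 passed.

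**Figure D5:**
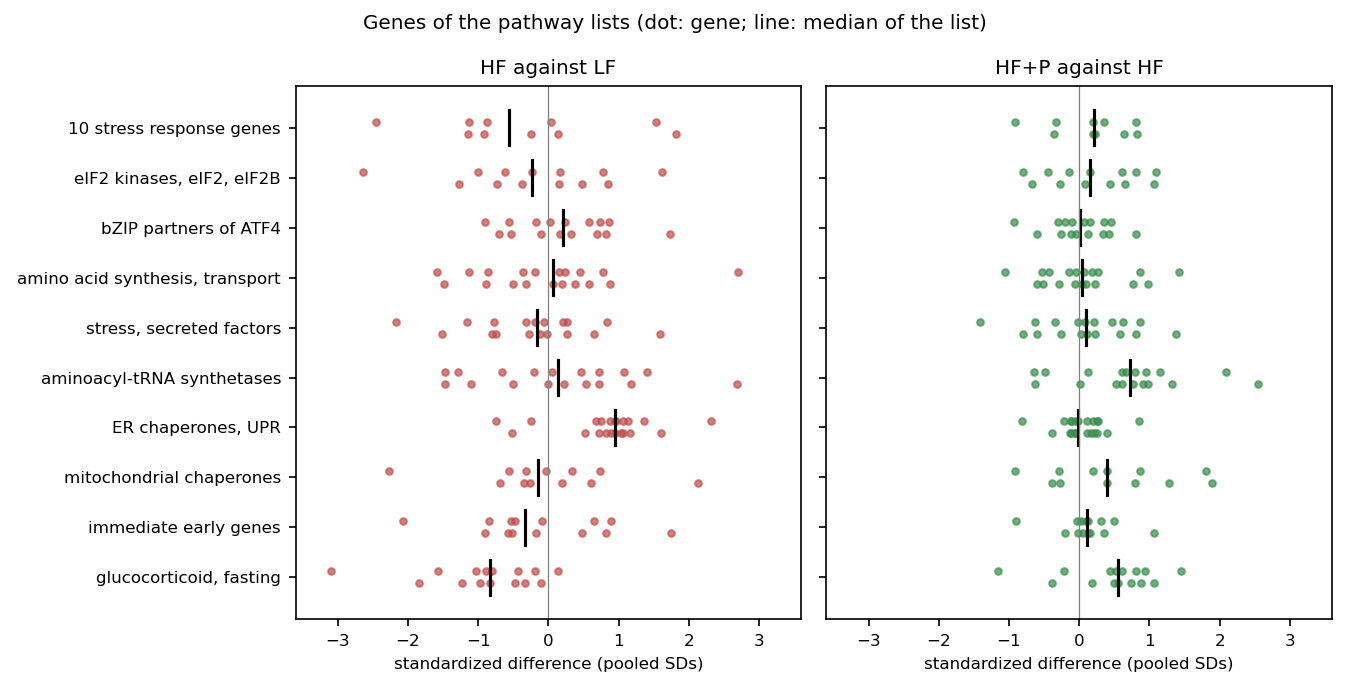
Standardized differences of the genes of each list, HF against LF at the left and HF+P against HF at the right, in pooled SDs. Each dot is 1 gene and the black line is the median of the list. In HF against LF, the 10 stress response genes have a median of -0.57, ER chaperones and unfolded protein response genes 0.94 and glucocorticoid and fasting genes -0.83. In HF+P against HF the aminoacyl-tRNA synthetases have the highest median, 0.72.

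Genes whose pattern over the 12 HF and LF mice was most like that of Atf5 were sought by Pearson correlation among the represented genes. The mice form the same 2 diet groups for every gene, so that a shared group difference alone gives a high value. The 5 highest were Tgfbrap1 (r = 0.967), Trim2 (0.966), Lrfn3 (0.962), G6pc (0.961) and Tubb2a (0.958), with Spearman's rho of 0.972, 0.986, 0.993, 1 and 0.958. Without the 2 mice farthest from the median of Atf5, r lay between 0.935 (Tubb2a) and 0.980 (G6pc). On deviations from the group means, r was 0.905 for Tgfbrap1, 0.898 for Trim2, 0.885 for Lrfn3, 0.876 for G6pc and 0.862 for Tubb2a. Over the 12 mice of HF+P and HF it was 0.447, 0.791, 0.762, 0.594 and 0.845 for the same genes in this order. In HF against LF, Tgfbrap1 had a standardized difference of -3.34 on the deposited scale and -0.72 after quantile normalisation. The median over all genes was then -0.76. Trim2, Lrfn3, G6pc and Tubb2a had -3.39, -2.63, -2.51 and -3.08 after quantile normalisation. All these values are descriptions of genes picked for their correlation with Atf5, and no test was made.

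The other members followed Atf5 less closely. Over the 12 HF and LF mice r with Atf5 was 0.756 for Ddit4, 0.694 for Ppp1r15a, 0.587 for Sesn2, 0.422 for Ddit3, 0.391 for Trib3, 0.021 for Atf3, -0.166 for Chac1, -0.284 for Asns and -0.481 for Atf4. On deviations from group means Asns stood at 0.651, Ddit4 at 0.629 and Ppp1r15a at 0.62, while Trib3 stood at -0.157. On representing probe sets processed with LF, HF mouse 1 had the highest HF value of Atf5, Ddit4, Ppp1r15a, Trib3, Asns and Ddit3. On the second probe sets it was again highest for Trib3, but HF mouse 8 was for Asns and HF mouse 5 for Ddit3. Over the HF+P and HF mice r was 0.591 for Ddit3, 0.512 for Ppp1r15a and 0.465 for Ddit4. It was 0.264 for Sesn2, 0.181 for Asns, 0.048 for Chac1, 0.020 for Trib3, -0.058 for Atf3 and -0.110 for Atf4. The HF livers are the same in both sets.

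Of the markers of other cell types 0 passed in either comparison, where 0.984% and 0.0055% of represented genes were called. With 1 probe set per gene, 1 of 8 sinusoidal endothelial markers was called lower in HF livers, where 1.14% of all genes were. All 10 macrophage and all 9 lymphocyte markers had higher values in HF livers, with medians of 0.65 and 0.81. The 4 neutrophil markers were also higher (0.91), as were the 2 measured acinar markers of the pancreas (1.62), and 6 of 8 markers of sinusoidal endothelial cells were lower (-0.93). After quantile normalisation the medians were -1.32 for neutrophil, -0.51 for acinar and -1.23 for endothelial markers, where the median over all genes was -0.76. After centring on column medians they were -1.88, -0.48 and -2.62, where the median over all genes was -2.71. Both scalings lower the median over all genes, so that a list median staying below 0 tells little. The mean over the endothelial markers, in SDs from the LF mean, ran from -1.31 to -0.22 in HF mice, against -0.35 to 0.62 in LF mice. The mean over the macrophage markers ran from -0.23 to 2.56 in HF mice, against -0.88 to 1.59 in LF mice, and that of the lymphocyte markers from 0.27 to 2.18, against -0.38 to 0.22. HF mouse 3 was highest in both. The median of the lymphocyte markers turned to -0.39 after quantile normalisation and -2.49 after centring on column medians, while that of the macrophage markers was 0.43 and 0.54. Without HF mouse 3 the standardized differences in HF against LF were -2.26 for Atf5, 2.38 for Atf4, -1.50 for Sesn2 and 0.41 for Chac1. In HF+P against HF all 10 macrophage markers were lower, with a median of -0.70. The mean over them ran from -1.85 to 0.24 in HF+P mice, against -1.08 to 1.91 in HF mice. Lymphocyte markers were lower in 7 of 9 cases (-0.45), neutrophil markers in 3 of 4 (-0.72) and acinar markers in 2 of 2 (-0.87). Endothelial markers were higher in 6 of 8 cases (0.30). Medians of hepatocyte, stellate, bile duct, red blood cell and fat cell markers were 0.078, 0.11, 0.20, -1.001 and 0.0051. In HF against LF they were -0.53, 0.31, -0.56, 0.76 and -0.065. The part of these cells in the values of the 10 genes was not tested.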

How the data were processed

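Liver RNA of 18 mice was measured on Affymetrix 3' arrays, 1 per mouse. Per the labels' protocols, RNA was extracted with Trizol and hybridised as biotinylated amplified RNA; R 2.7.2 is named in the submitters' processing notes. Summarisation, normalisation and log base: not given in the sources used here. From their range, 5.36 to 15.0, the authors' deposited values were handled as log2 values. Of 45101 probe sets, 34958 had a single symbol in the platform annotation, 932 several, and 64 array controls were left out.

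Each comparison was fitted in limma 3.58.1 (R 4.3.3; lmFit and eBayes, 6 mice per group, no covariate, two-sided) over 45037 probe sets with Benjamini-Hochberg adjustment and a threshold of 0.05. The script was tested on simulated data with probe sets shifted by 1, 2, 3 and 5 SDs. It called 0%, 2%, 14% and 80% of these in HF+P against HF. In HF against LF it called 0%, 4%, 18% and 90%. An absence of calls thus says little about shifts of 3 SDs or less. Intervals of standardized differences are 95% intervals from the noncentral t distribution. The number of arrays limits the precision, and the labels do not say whether the mice shared cages or litters.

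The members, lists and tests were chosen with earlier results of these data known. Named were all members, list genes past the threshold, 18 measured genes of 20 followed whatever their value, and the 5 genes most like Atf5; Eif2b1, Gars and Farsb were named after their values were seen. The alternatives were quantile normalisation, centring on column medians, only probe sets above the median level, 1 probe set per gene, the mean over a gene's probe sets, trend and robust settings, array weights, the mouse number as a block, leaving out each mouse, an exact permutation test and a threshold of 0.10. Centring on the median deviation was chosen after seeing the data.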

Additional observations from a re-analysis of the deposited data

Results flagged for a closer look

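In 5 of 64 groups of 6 mice a single mouse stood far from the others by Dixon's ratio, the gap to the nearest mouse divided by the range of the group, above the 95% critical value; chance flags about 1 in 20 groups. HF mouse 5 was highest in a probe set of Ddit3 in both value sets, with ratios of 0.728 and 0.663, and this is 1 array processed with different partners. HF mouse 3 was lowest in a probe set of Atf4 in the set of HF and LF (0.627) and lowest in Ppp1r15a in the set of HF+P and HF (0.673). HF+P mouse 1 was highest in Ddit4 (0.695), at 2.65 SDs from the HF mean.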

How the results depend on the processing

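In HF against LF 302 probe sets were called, 6766 after quantile normalisation, 42369 after centring on column medians, 568 among the probe sets above the median level, 861 at a threshold of 0.10, and 131 to 325 without 1 mouse. Column medians come from 4 different probe sets, and after centring on the median deviation 312 were called. Of the 16 member probe sets 0 passed, against 3 after quantile normalisation and 14 after centring on column medians. Since 6766 and 42369 of all 45037 probe sets passed in these settings, nothing about the members is read from these counts. Only 1 each passed among the probe sets above the median level, at a threshold of 0.10 and with the mouse number as a block. There 568, 861 and 246 of the probe sets tested passed. With 1 probe set per gene 1 member passed, where 332 of 18193 genes did. Leaving out 1 mouse gave 0 to 1, with Atf5 the 1 without HF mouse 1. Atf5 passed in 6 of 20 alternatives at a threshold of 0.05. Of the pathway list genes 3 passed, against 13, 107, 6 and 8 under the first 4 settings and 0 to 2 without 1 mouse. In those 4 settings 6766, 42369, 568 and 861 of the probe sets tested passed.

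In HF+P against HF 1 probe set was called, 2 after centring on column medians and 0 to 2 without 1 mouse; no member passed in any setting run. Signs turned after quantile normalisation for Atf3 (0.58), Atf5 (-0.11) and Ddit3 (0.13), after centring on column medians for Atf3 (0.19) and Asns (0.097), for Ddit3 with the mean over its probe sets (0.047), and without 1 mouse for Atf5 (-0.13 to 0.51) and Ddit4 (-0.44 to 0.45); the cause was not tested.

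Correlations between the deviations of same-numbered mice were -0.13 to 0.098 in HF and LF and 0.034 to 0.21 in HF+P and HF. In 4 of 6 and 3 of 5 cases the same number was the best match, and the HF mice enter both counts. How often unpaired mice would match in this way was not tested. The labels state no pairing, and whether the numbers mark a shared structure was not tested. With the mouse number as a replicate block, 246 probe sets were called in HF against LF and Atf5 had -3.59; in HF+P against HF 1 probe set was called and Atf5 had 0.43.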
